A study of Mus musculus with 2 samples.

Results

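Transcripts of the 5′ terminal oligopyrimidine (TOP) class that do not encode ribosomal proteins were examined in single mouse leukemia cells. The set was chosen by gene symbol and holds 10 genes: the elongation factor genes Eef1a1, Eef1b2, Eef1g and Eef2, the gene Tpt1, and the snoRNA host genes Gas5, Snhg1, Snhg5, Snhg6 and Snhg8. Of these 10 genes, 6 are among the 31053 genes in the tables and have values. Gas5, Snhg1, Snhg5 and Snhg8 have no row by symbol or by Ensembl identifier in the tables used here and were not analysed. GENCODE M21 gives these 4 genes the type processed transcript, and only 10 of the 790 genes of that type are in the tables. Snhg6, annotated as a lincRNA, was therefore the only snoRNA host of the set with values, and nothing below applies to snoRNA hosts as a class. The 79 genes of cytosolic ribosomal proteins served as the comparison.

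TOP mRNAs begin with a cytosine followed by a run of pyrimidines and code for much of the translation machinery. The run lets the cell switch their translation on and off together through mTORC1, the kinase complex that senses nutrients and growth signals, and through the cap-binding protein LARP1. eEF1A brings aminoacyl-tRNA to the ribosome. The eEF1B complex, to which Eef1b2 and Eef1g contribute, reloads eEF1A with GTP, and eEF2 moves the ribosome along the mRNA. Tpt1 encodes the translationally controlled tumor protein TCTP, an abundant growth-related protein. snoRNA host genes carry small nucleolar RNAs in their introns. Their spliced RNA is often degraded during translation by nonsense-mediated decay (NMD), while the snoRNAs guide the modification of ribosomal RNA.

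Cells came from mice transplanted with Usp18-floxed leukemia cells that carry UBCER-Cre, a recombinase driven by the ubiquitin C promoter and activated by tamoxifen, and AE9a, a truncated AML1-ETO fusion that causes acute myeloid leukemia. Both groups carry the floxed gene, Cre and AE9a. After the recipients became sick they received oil or tamoxifen, and GFP+ Lin- c-Kit+ spleen cells were sorted on day 3 after injections began. Each group is a pool of 3 mice made into 1 library, and no label assigns cells to mice. The genotype and treatment labels give Usp18f/f with oil and Usp18delta/delta with tamoxifen, whereas the treatment protocol in the same labels describes Usp18+/f cells and the loss of a single allele. No group received tamoxifen without Cre, so the injection and the deletion cannot be told apart.

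The library labelled oil kept 6838 of 7774 barcodes and 66045700 UMIs (counted transcript molecules), and the library labelled tamoxifen kept 6472 of 7311 barcodes and 60661486 UMIs. The median cell had 8622.5 and 8209.5 UMIs. Usp18, the targeted gene, had 371 UMIs with oil and 933 with tamoxifen, 5.62 and 15.4 CPM (UMIs scaled to a common library total), which is opposite to the direction a deletion would give. The reads lie at the 3′ end and need not cover the deleted part, so the groups are called here by their labels. Of 31 interferon-stimulated genes tested, 28 had an interval above 0 for tamoxifen over oil, and the list summed to 612 and 943 CPM (log2 ratio 0.62, 0.61 to 0.64). Kit had 11305 and 14057 UMIs, whereas Ptprc, which encodes the pan-leukocyte antigen CD45, had only 9 and 3. Of 14 markers of mature lineages, 5 (Cd4, Cd8a, Ly6g, S100a8 and Klrb1c) were at 0 in both libraries. Mast cell genes summed to 7582 and 7407 CPM, of which Srgn gave 3761 and 3749, and erythroid genes to 9889 and 11149 CPM. The libraries shared 14 barcodes. With 1 library per group the spread between animals is unknown, so no test was run, and every interval below is at 95% and covers counting error only. Fewer transcripts per cell and fewer cells with the transcript are not separated by a summed level.

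The class is named for the first bases of its transcripts, so the sequence around the annotated start sites was read from RefSeq (GRCm38.p6). The search looked on the sense strand, from 20 bases before to 50 after each start, for a C followed by at least 4 bases that are each C or T, and runs are printed in capitals with the bases around them, up to the end of the window. Positions count from 1 at the annotated start, with -1 for the base before it. A run was present at 7 of 9 starts of 8 members, at 62 of 68 starts of ribosomal protein genes (91.2%) and at 64.4% of 32851 starts in the whole table. A C no more than 2 bases from the start and followed by such bases was present at 33.3%, 32.4% and 8.96% of these starts. It may lie inside a longer run that begins earlier, as in Eef1a1. The sequences below are those of 3 measured members and of the unmeasured hosts in which a run was present, and show how near to the start each run lies.

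Eef1a1: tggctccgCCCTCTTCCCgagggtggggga
Eef1b2: tccgagcgCTTTCgttcaactccggc
Tpt1: cgagcgtgCCCTCTatat
Gas5: catctcagCCTTTCggagctgtgcggcatt
Snhg8: tcagaagtCTCTTTggctgcgatccgccta
Snhg5: ggctcgttCTTTTacgacggagcctaagat

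The Eef1a1 run began at position -5 (sequence at chr9:78481708-78481737, minus strand), the Gas5 run at -1 (chr1:161035157-161035186, plus) and the Snhg8 run at 1 (chr3:123508315-123508344, minus). The runs of Snhg5 (chr9:88522867-88522896, minus), Eef1b2 (chr1:63176855-63176880, plus) and Tpt1 (chr14:75845288-75845305, plus) began at 10, 33 and 41. Eef2 also had a run, not printed here, which began at 16. Annotated starts are not measured ones, so a run some bases inside the window says nothing on where these cells begin the transcript. Snhg1 and an earlier start of Gas5 had no run of this kind in the window. Eef1g and Snhg6 were not in the table.

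Members also share what lies within them. In GENCODE M21 at least 1 snoRNA gene lies within the span of 8 of the 10 members: 10 entries in Gas5 (under 9 names, with Mir5117, which is typed as a snoRNA there), 8 in Snhg1, 3 in Eef1b2 (Snora41 and 2 overlapping entries of Gm26457), 2 in Snhg5 and 1 each in Eef2 (Snord37), Tpt1 (Snora31), Snhg6 (Snord87) and Snhg8 (Snora24). Eef1a1 and Eef1g contain none. Among the measured members 4 of 6 (66.7%) contain a snoRNA gene, against 30 of 79 ribosomal protein genes (38.0%) and 2.04% of 10517 tested genes with an annotation.

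Eef1a1 (ENSMUSG00000037742, chromosome 9, 78478449 to 78489151, minus strand) encodes the form of eEF1A that most dividing cells use. With oil 363397 UMIs were counted, or 5502 CPM (5484 to 5520), and with tamoxifen 326392, or 5381 CPM (5362 to 5399). Its log2 ratio of tamoxifen over oil was -0.032 (-0.039 to -0.025), a difference of -2.21%. The sign of this ratio turned with the scaling: it was 0.010 after TMM scaling and 0.0065 after median-ratio scaling. Its paralog Eef1a2, the form known from muscle and neurons, had 0 UMIs in both libraries.

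Eef1b2 (ENSMUSG00000025967, chromosome 1, 63176825 to 63180486, plus strand) encodes the exchange subunit that reloads eEF1A. It had 98903 UMIs with oil and 86287 with tamoxifen, 1497 CPM (1488 to 1507) and 1422 CPM (1413 to 1432). The level was slightly lower with tamoxifen, with a log2 ratio of -0.074 (-0.087 to -0.061), which turned to 0.0081 with mitochondrial and ribosomal protein genes left out of the total.

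Eef1g (ENSMUSG00000071644, chromosome 19, 8967041 to 8978479, plus strand) encodes the gamma subunit, which is thought to anchor the exchange complex. It had 50299 UMIs with oil and 38711 with tamoxifen, 762 CPM (755 to 768) and 638 CPM (632 to 645). This was the most negative ratio of the 6 members, -0.26 (-0.27 to -0.24), or -16.2%, and it was negative under each of the 11 alternatives, between -0.34 and -0.16.

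Eef2 (ENSMUSG00000034994, chromosome 10, 81176631 to 81182498, plus strand) had 83352 UMIs with oil and 73768 with tamoxifen, 1262 CPM (1253 to 1271) and 1216 CPM (1207 to 1225). The log2 ratio was -0.054 (-0.068 to -0.039), or 0.029 with mitochondrial and ribosomal protein genes left out of the total. Summed, the 4 elongation factors had 9023 CPM with oil and 8657 CPM with tamoxifen, a log2 ratio of -0.060 (-0.065 to -0.054), and Eef1a1 gave most of that sum. The summed ratio turned positive, 0.023, where mitochondrial and ribosomal protein genes were left out of the total.

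Tpt1 (ENSMUSG00000060126, chromosome 14, 75845093 to 75848525, plus strand) had 307673 UMIs with oil and 277624 with tamoxifen, 4658 CPM (4642 to 4675) and 4577 CPM (4560 to 4594). Its log2 ratio was -0.026 (-0.033 to -0.018), and the sign turned to 0.017 with TMM scaling. Both libraries therefore held Tpt1 at nearly the same share of their UMIs.

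Snhg6 (ENSMUSG00000098234, chromosome 1, 9941959 to 9944118, minus strand), the noncoding host of Snord87, went the other way. It had 3979 UMIs with oil and 4374 with tamoxifen, 60.2 CPM (58.4 to 62.1) and 72.1 CPM (70.0 to 74.3). The log2 ratio was 0.26 (0.20 to 0.32), and it was positive under each alternative, between 0.25 and 0.41. Per library total it was the only measured member that was higher with tamoxifen. With TMM and with median-ratio scaling Eef1a1 and Tpt1 were also above 0 (0.0065 to 0.017). With mitochondrial and ribosomal protein genes left out of the total, Eef1a1, Eef1b2, Eef2 and Tpt1 were above 0 (0.0081 to 0.057), and Tpt1 also was under a stricter filter on cells, with a mitochondrial limit of 5% (0.057).

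**Figure D1:**
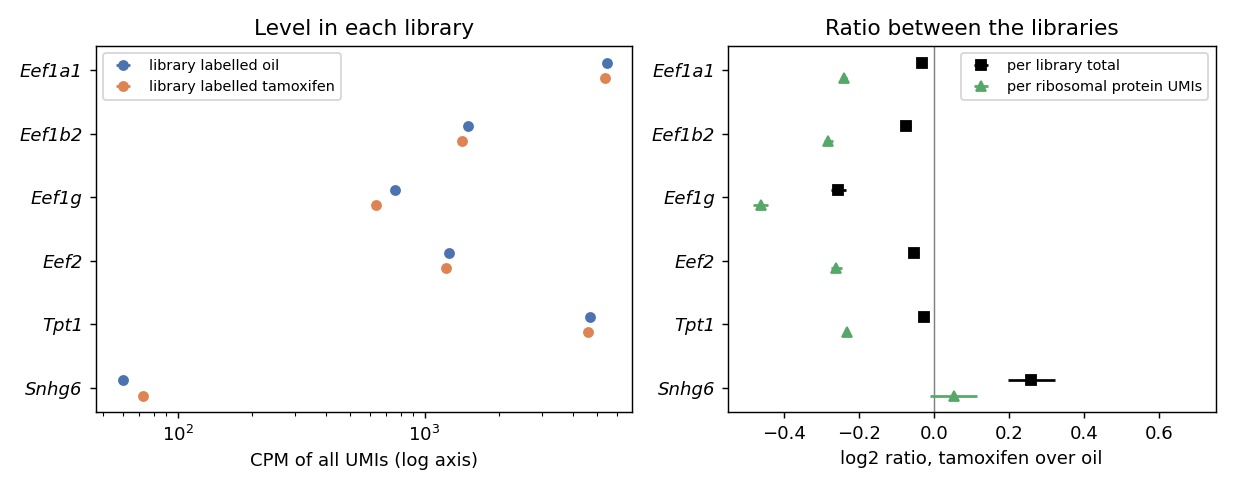
The left panel plots the CPM of the 6 measured members in the 2 libraries (log axis) and the right panel the log2 ratio of tamoxifen over oil, per library total (squares) and per ribosomal protein UMI (triangles). Bars are 95% counting intervals, and with 1 library per group there is no error between animals. Per library total, Eef1g lay lowest at -0.26 and Snhg6 highest at 0.26, while per ribosomal protein UMI the 4 elongation factors and Tpt1 lay between -0.46 and -0.23.

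These values were read against the 10527 genes that reached 100 UMIs over the pair of libraries. No member of the 6 was 1.2-fold higher or 1.2-fold lower, against 9.08% and 16.9% of all genes, although Snhg6 (1.197-fold) and Eef1g (0.838-fold) lay just inside these limits. The interval lay above 0 for 1 member and below 0 for 5, against 19.3% and 39.8% of all genes. Among the 1674 genes with at least 100 CPM in either library, to which Snhg6 does not belong, 7.53% were 1.2-fold higher, 21.1% were 1.2-fold lower, 26.3% had an interval above 0 and 63.0% one below 0. A ratio below 0 was therefore common at the depth and level of these genes. The median over the 6 members was -0.043, beside -0.063 over all genes tested and -0.11 over the 1674 genes of high level. Eef1g lay at the 17.7th percentile of all ratios and Snhg6 at the 90.6th, while the remaining 4 members lay between the 47.7th and the 57.1st.

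The comparison with ribosomal protein genes addressed whether TOP transcripts moved as 1 block. Ribosomal protein genes took 24.5% of UMIs with oil and 28.3% with tamoxifen, whereas the 4 elongation factors took 0.902% and 0.866%. The summed log2 ratio of ribosomal proteins was 0.21. Per 1000 ribosomal protein UMIs, Eef1a1 had 22.5 UMIs with oil and 19.0 with tamoxifen, Tpt1 had 19.0 and 16.2, and Eef1g had 3.11 and 2.26. Relative to the ribosomal protein sum, the log2 ratio was -0.27 (-0.27 to -0.26) for the elongation factors, -0.23 (-0.24 to -0.23) for Tpt1 and -0.46 (-0.48 to -0.44) for Eef1g. Over all kept cells Snhg6 differed little from that sum, at 0.052 (-0.0099 to 0.11). The comparator itself was not uniform. Its 79 genes had a median of 0.20 with an SD of 0.29 between genes, with Rpl5 at -0.20 near the lower end and both Rpl39 and Rps28 at 0.80 at the upper end. Of these genes 57 had an interval above 0 and 21 below, beside 26.3% and 63.0% of all genes of at least 100 CPM. Of the 79, 16 lay below Eef1a1, 12 below Eef1b2, 14 below Eef2 and 19 below Tpt1, but only 1 below Eef1g, and 45 lay below Snhg6.

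Much of that spread followed the length of the coding sequence. Across the 79 ribosomal protein genes, Spearman's rho of the log2 ratio with coding length was -0.89 and Pearson's r with log length was -0.87, and with transcript length they were -0.59 and -0.46. These are descriptions across genes of the same 2 libraries, and genes are not independent replicates. Both lengths were looked at after the ratios had been seen. The 55 genes with coding sequences under 600 bases had a median of 0.29, and 51 of them had an interval above 0. The 24 genes of at least 600 bases had a median of -0.060, 17 with an interval below 0, and summed to -0.0062. Among all genes of at least 100 CPM, 26.3% had an interval above 0 and 63.0% one below 0. Coding lengths of the members are 2574 bases for Eef2, 1386 for Eef1a1, 1311 for Eef1g, 675 for Eef1b2 and 516 for Tpt1. Set against the ribosomal protein genes with coding sequences of at least 600 bases, the elongation factors were at -0.054 instead of -0.27. Against those with transcripts of at least 1000 bases they were at -0.17. Eef1a1, Eef1b2 and Eef2 thus had ratios like those of the longer ribosomal protein genes. Tpt1, the shortest of the 5 coding members, lay below most ribosomal protein genes of under 600 bases, but most of these are shorter than its 516. Ribosomal protein genes nearer to its length had lower ratios than the shortest ones, such as 0.14 at 507 bases, 0.022 at 534 and -0.036 at 576.

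**Figure D2:**
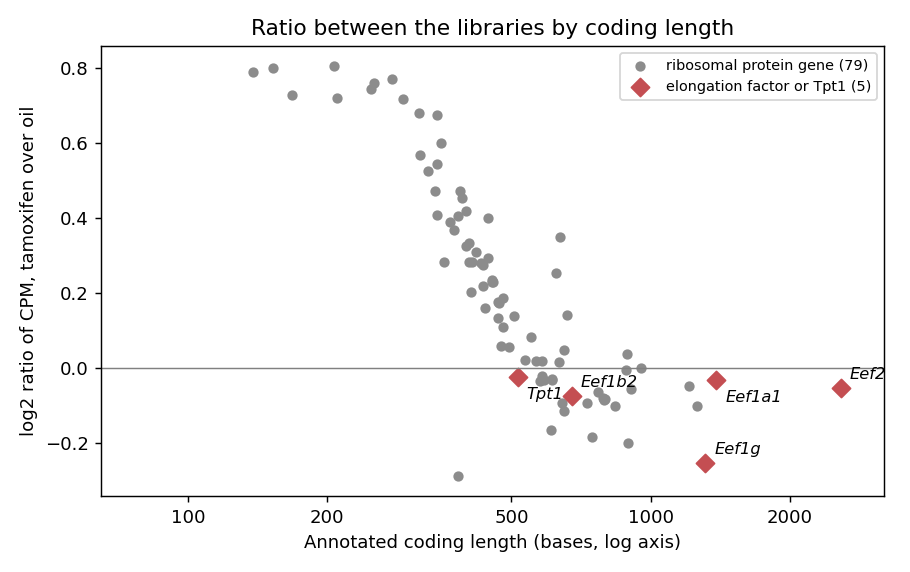
Each point is a gene, with its annotated coding length in bases (log axis) against the log2 ratio of CPM, tamoxifen over oil; grey points are the 79 ribosomal protein genes and red diamonds the 5 coding members. The short ribosomal protein genes reach 0.80, those of 600 bases or more lie around their median of -0.060, and Eef1g lies below all ribosomal protein genes but 1.

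Outside the ribosome, the shortest transcripts also had the highest median, but the medians did not run in 1 direction with transcript length. Protein-coding genes with transcripts under 600 bases had a median log2 ratio of 0.19 (179 genes, ribosomal proteins left out), against -0.11 for transcripts of 600 to 1000 bases, -0.13 for 1000 to 2000 and -0.047 for longer ones. Ribosomal protein genes with a snoRNA gene inside had a median of 0.11 and those without one 0.28. The mitochondrial share of UMIs was near equal, 6.82% and 6.84% in the median cell. The part of transcript capture, RNA quality or fragment length in the link with length was not tested. Cell Ranger does not count a read that fits several genes equally well. Eef1a1, Tpt1 and many ribosomal protein genes have near-identical pseudogene copies, but only 32 of the genes counted are typed as processed pseudogenes. How far such copies affect the absolute levels was not tested.

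Other translation genes were mostly lower with tamoxifen. Of 17 further genes of elongation, its modifying enzymes and release, 15 had an interval below 0, none above 0, and the median was -0.22. Eef1d, which encodes the remaining subunit of the exchange complex, had 385 CPM with oil and 295 with tamoxifen (log2 ratio -0.38, -0.41 to -0.36). Dph2, an enzyme that makes the diphthamide residue of eEF2, was at -0.41 (-0.57 to -0.25). At the upper end were Dph5, a later enzyme of the same pathway, at -0.11 (-0.19 to -0.034), and the rare Eif5a2, with 176 and 199 UMIs, at 0.30 (-0.000012 to 0.60). Subunits of the exchange complex therefore differed among themselves, from -0.074 in Eef1b2 to -0.26 in Eef1g and -0.38 in Eef1d, and their intervals did not overlap.

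Among 16 other transcripts known or proposed to carry a TOP motif, 13 had an interval below 0 and 1 above, with a median of -0.18. Vim, the intermediate filament vimentin, was at -0.48 (-0.49 to -0.47) and Cct4, a chaperonin subunit, at -0.35 (-0.38 to -0.31). Pabpc1, the poly(A)-binding protein, was at -0.0051 (-0.024 to 0.014) and Eif3f, an initiation factor subunit, at 0.034 (0.012 to 0.056). Of 30 other initiation factor genes, 25 had an interval below 0 and 2 above, with a median of -0.26. The helicase gene Eif4a1 (-0.45, -0.47 to -0.43) and Eif2s1, a subunit of the factor that carries the initiator tRNA (-0.41, -0.45 to -0.37), were lowest. Eif5b (0.14, 0.11 to 0.16) and Eif3j1 (0.22, 0.18 to 0.27) were highest. An interval below 0 was also the commoner case among all genes (39.8%) and among those of high level (63.0%).

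Snhg6 was next compared with other snoRNA hosts. Of the 20 further snoRNA hosts listed, 11 had a row and 9 were tested, with 6 intervals above 0, 3 below and a median of 0.13. The 5 noncoding hosts were all higher with tamoxifen: Snhg10 (323 and 534 UMIs) at 0.85 (0.65 to 1.05), Epb41l4aos at 0.62 (0.54 to 0.71), Snhg20 at 0.32, Snhg9 at 0.29 and Snhg12 at 0.086 (0.024 to 0.15), with a summed ratio of 0.31 (0.28 to 0.35). Of the 4 protein-coding hosts, Rcc1 (-0.51, -0.60 to -0.42), Nop56 (-0.41, -0.45 to -0.37) and Ncl (-0.34, -0.35 to -0.33) were lower, and Taf1d (0.13, 0.078 to 0.17) was higher. Rcc1 loads Ran with GTP, while Nop56 and Ncl act in ribosome production. Snhg20, Snhg9, Snhg12, Ncl and Taf1d are named because the split into noncoding and coding hosts, made after the values were seen, leaves so few. Noncoding genes as a whole also lay higher: the median of 539 noncoding genes tested was 0.11, with 62.3% above 0, against -0.067 for protein-coding genes.

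**Figure D3:**
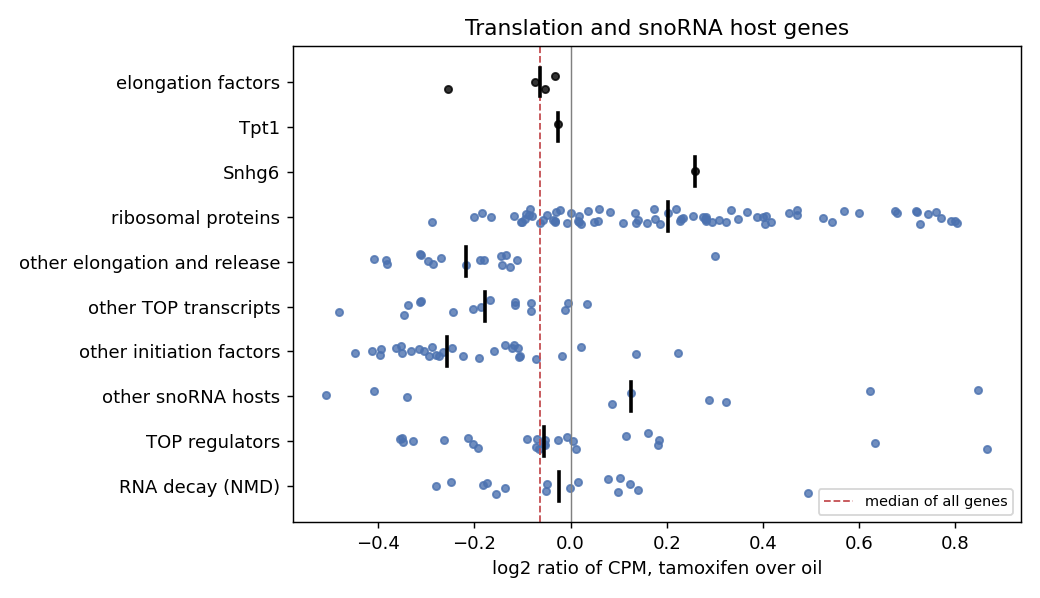
Each point is a gene, placed by its log2 ratio of CPM, tamoxifen over oil; rows are the members by role and the lists compared with them, black bars mark the medians of the lists and the dashed line the median of all genes tested (-0.063). Initiation factors (median -0.26) and further elongation genes (-0.22) lie mostly below the line, ribosomal proteins (0.20) mostly above it, and Snhg6 lies at 0.26.

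Genes that act on TOP transcripts and on host RNA had intervals on both sides of 0. Of 25 regulators of mTORC1 signalling and TOP binding, 6 had an interval above 0, 10 below, and the median was -0.054. That is near the values over all genes, of which 19.3% had an interval above 0 and 39.8% below, with a median of -0.063. The highest were Ddit4 (21.3 and 38.9 CPM, log2 ratio 0.87, 0.77 to 0.96) and Sesn2 (8.54 and 13.3 CPM, 0.63, 0.48 to 0.79), which both encode inhibitors of mTORC1. The lowest were Eif4ebp1, the translation repressor that mTORC1 switches off (-0.36, -0.40 to -0.31), and Cnbp, an RNA-binding protein tied to TOP mRNAs (-0.35, -0.38 to -0.32). Of 16 genes of NMD, 6 lay above 0 and 6 below by their interval, beside the same 19.3% and 39.8% of all genes, with a median of -0.025. Upf2 was highest (0.49, 0.42 to 0.57), followed by the exonuclease gene Xrn1 (0.14, 0.073 to 0.21). Eif4a3 (-0.28, -0.33 to -0.23) and Magoh (-0.25, -0.29 to -0.21), both of the exon junction complex, were lowest. Levels of mRNA do not show how strongly TOP mRNAs were translated, which was not measured.

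To see how the members vary from cell to cell, cells were thinned at random to 3000 UMIs each, in a single draw that left out 508 and 345 shallower cells. In the library labelled oil the median cell then had 16 UMIs of Eef1a1 (10th to 90th percentile 9 to 23), 14 of Tpt1 (9 to 22), 4 of Eef1b2 (1 to 7), 3 of Eef2 (1 to 6) and 2 of Eef1g (0 to 4). With tamoxifen the medians were 15, 14, 4, 3 and 1. Eef1a1 and Tpt1 were detected in nearly every cell. Eef1g was detected in 78.3% (77.3 to 79.3, exact Clopper-Pearson) of cells with oil and 72.4% (71.2 to 73.5) with tamoxifen, or 88.0% and 85.5% before thinning. Snhg6 was detected in 14.9% (14.0 to 15.8) and 17.8% (16.9 to 18.8), or 38.0% and 41.2% before thinning. Cells of 1 sort gave no type that should lack these genes, so the share due to free RNA was not tested.

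The members differed between called phases in different ways, and phase was also tied to the mast cell genes taken up below. Phases were assigned from S and G2M gene lists that hold no member, and such calls alone do not show that cells divide. In the library labelled oil 44.0% of thinned cells were called G1, 20.8% S and 35.2% G2M, and in the library labelled tamoxifen 58.1%, 14.2% and 27.7%. Eef1g was lowest in G1: 424, 893 and 793 CPM in G1, S and G2M with oil, and 413, 787 and 670 CPM with tamoxifen. Its log2 ratio of S over G1 was 1.07 (1.01 to 1.14) and 0.93 (0.85 to 1.01). This was far above the ratio of ribosomal proteins, 0.28 and 0.13. Snhg6 was also higher in S, at 0.58 (0.35 to 0.82) and 0.73 (0.51 to 0.95), as was Eef1b2 at 0.50 (0.46 to 0.55) and 0.31 (0.26 to 0.36). Eef1a1 (0.17 and 0.060) and Eef2 (0.040 and -0.14) differed little. Tpt1 was highest in G1, with 5800, 4488 and 4304 CPM with oil and 5554, 4130 and 4161 CPM with tamoxifen, and its S over G1 ratio was -0.37 (-0.39 to -0.35) and -0.43 (-0.46 to -0.40).

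Averaged over phases the libraries differed less in Eef1g. Tamoxifen over oil was -0.041 (-0.10 to 0.024) in G1, -0.18 (-0.26 to -0.10) in S and -0.24 (-0.31 to -0.18) in G2M. The mean was -0.16, beside -0.28 over all thinned cells and -0.26 over all kept cells before thinning. The summed elongation factors were slightly higher with tamoxifen in G1, at 0.037 (0.023 to 0.052), and lower in S, at -0.10 (-0.13 to -0.079), and in G2M, at -0.069 (-0.087 to -0.051). Ribosomal proteins were higher in every phase, at 0.33, 0.18 and 0.19, so relative to them the elongation factors stood at -0.29, -0.28 and -0.26. Snhg6 was higher with tamoxifen in G1 (0.39, 0.20 to 0.58), S (0.53, 0.28 to 0.79) and G2M (0.30, 0.094 to 0.50). Relative to ribosomal proteins Snhg6 stood at 0.057 (-0.13 to 0.25), 0.35 (0.10 to 0.61) and 0.11 (-0.095 to 0.31) in these phases. Tpt1 was lower in each, by log2 ratios of -0.063, -0.12 and -0.049.

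**Figure D4:**
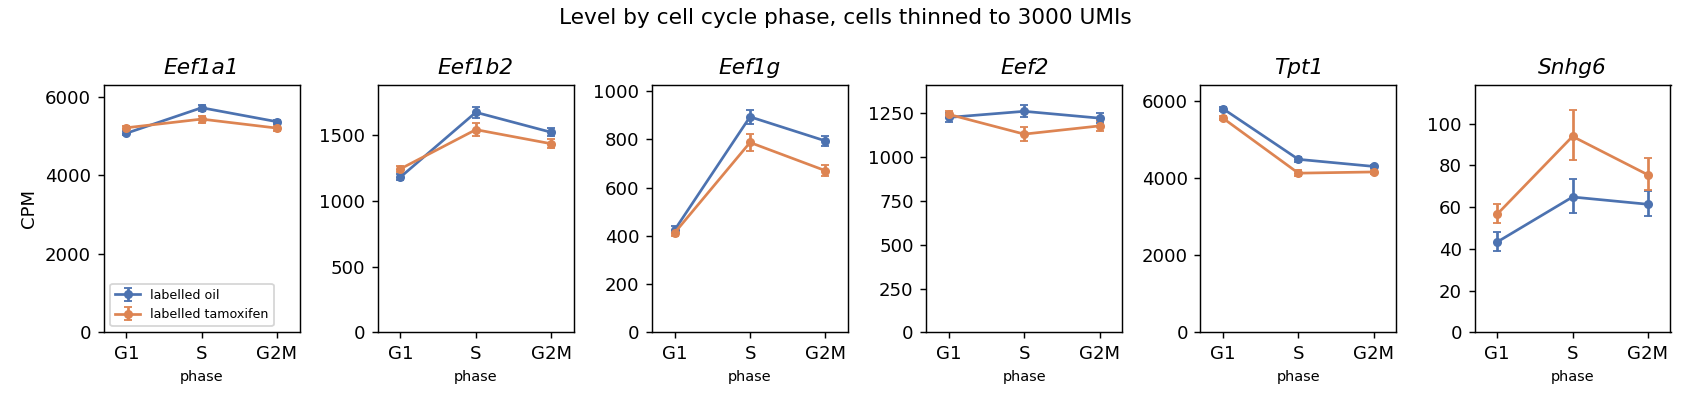
Each panel plots the CPM of a measured member in cells called G1, S and G2M, thinned to 3000 UMIs, for the libraries labelled oil (blue) and tamoxifen (orange); bars are 95% Poisson intervals and each axis starts at 0. Eef1g is lowest in G1 (424 and 413 CPM), Tpt1 is highest there (5800 and 5554 CPM), and Snhg6 is higher with tamoxifen in every phase.

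Of the gene lists used to order cells, the mast cell genes gave the largest differences in Eef1g and Tpt1. In each library the thinned cells were divided into 3 ranges of equal size by their UMIs from 14 mast cell genes, with limits at 15 and 30 UMIs for oil and 15 and 29 for tamoxifen. A single gene, Srgn, weighs heavily in this list: before thinning it gave 248370 of 500761 UMIs with oil and 227404 of 449305 with tamoxifen. Within 1 UMI of a limit lay 870 and 882 cells. A range is not a cell type. Eef1g had 938, 656 and 361 CPM in the low, middle and high range with oil, and 755, 539 and 317 CPM with tamoxifen. Its log2 ratio of high over low was -1.38 (-1.45 to -1.31) and -1.25 (-1.33 to -1.17), against -0.38 and -0.27 for ribosomal proteins. Eef1b2 (-0.64 and -0.47) and Snhg6 (-0.67 and -0.92) were also lower in the high range. Tpt1 was higher there, with 4340 and 6015 CPM in the low and high range with oil and 4271 and 5898 CPM with tamoxifen (0.47 in both libraries). Eef1a1 (-0.24 and -0.16) and Eef2 (-0.12 and -0.060) varied least.

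Cell cycle calls moved with these ranges: 10.9% of the low range and 83.4% of the high range were called G1 with oil, and 25.7% and 89.1% with tamoxifen. The ranges were therefore also compared within each phase, a step added after the first values were seen. Eef1g was then lower in the high range by log2 ratios between -1.10 and -0.88 with oil and between -0.997 and -0.913 with tamoxifen. Tpt1 was higher by 0.21 to 0.35 with oil and 0.21 to 0.32 with tamoxifen. Eef1b2 was lower by log2 ratios between -0.56 and -0.50 with oil and between -0.48 and -0.32 with tamoxifen. Snhg6 was below 0 by its interval only in G2M with oil (-0.64, -1.21 to -0.11) and in G1 with tamoxifen (-0.90, -1.21 to -0.59), and its interval spanned 0 in the other 4 comparisons. The intervals of Eef2 spanned 0 in S phase in both libraries. The high range of S phase with tamoxifen held only 48 cells. Within a range, S and G1 lay closer together by their ratio for Eef1g and Tpt1 than over all cells. With oil Eef1g had 709, 531 and 339 CPM in G1 of the low, middle and high range, and 1001, 795 and 542 in S. With tamoxifen it had 603, 491 and 305 in G1 and 873, 683 and 437.5 in S. Tpt1 had 4889, 5129 and 6222 CPM in G1 and 4397, 4508 and 5069 in S with oil. The separate parts of phase and mast cell genes were not tested.

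**Figure D5:**
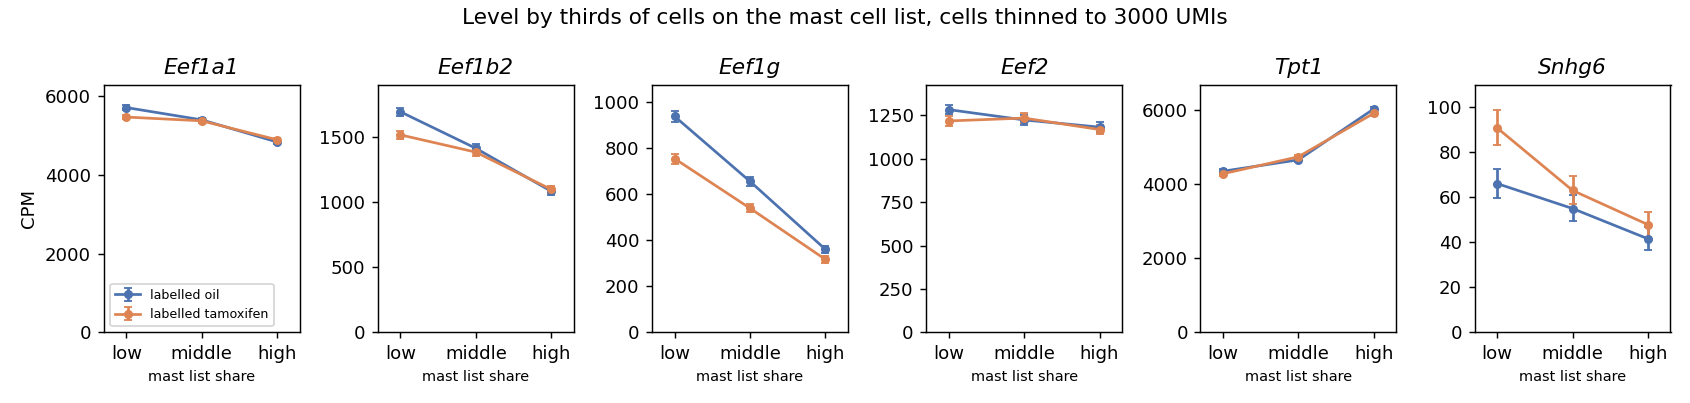
Each panel plots the CPM of a measured member in the low, middle and high range of cells by UMIs of the mast cell list, thinned to 3000 UMIs, for the libraries labelled oil (blue) and tamoxifen (orange); bars are 95% Poisson intervals and each axis starts at 0. Eef1g decreases from 938 to 361 CPM with oil and from 755 to 317 CPM with tamoxifen, while Tpt1 increases from 4340 to 6015 CPM and from 4271 to 5898 CPM.

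Along 15 erythroid genes Eef1g and Tpt1 differed in the opposite directions. Eef1g was higher in the range with most erythroid UMIs, by 0.44 (0.38 to 0.51) with oil and 0.53 (0.46 to 0.61) with tamoxifen, and Tpt1 was lower, by log2 ratios of -0.19 (-0.21 to -0.17) and -0.32 (-0.34 to -0.30). Eef1a1 was at -0.085 and -0.14, Eef1b2 at -0.081 and -0.15, Eef2 at -0.068 (-0.11 to -0.022) and -0.24 (-0.29 to -0.19), and Snhg6 at -0.23 (-0.46 to -0.0068) and -0.018 (-0.23 to 0.19). Along interferon-stimulated genes Eef1g was lower in the high range (-0.27 and -0.43) and Tpt1 slightly higher (0.099 and 0.071). The differences along erythroid genes were not steady over the low, middle and high range. Eef1g had 509, 755 and 691 CPM with oil and 398, 640 and 574 CPM with tamoxifen. Tpt1 had 5556, 4582 and 4863 CPM with oil and 5800, 4455 and 4642 CPM with tamoxifen. In the same ranges the share called G1 was 57.7%, 28.7% and 45.5% with oil and 76.8%, 44.1% and 53.3% with tamoxifen. Along interferon-stimulated genes 5389 and 4937 cells lay within 1 UMI of a limit, and the share called G1 went from 35.9% to 54.9% with oil and from 46.9% to 70.3% with tamoxifen. The part of the cell cycle in the differences along these last lists was not tested.

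Across thinned cells the elongation factors had unequal correlations with ribosomal proteins. With oil their mean UMIs per cell were 15.9 for Eef1a1, 4.20 for Eef1b2, 3.69 for Eef2 and 1.95 for Eef1g. Counting noise lowers r more where counts are low, so the values do not rank how closely these genes are coupled. Pearson's r with the ribosomal protein sum was 0.58 and 0.55 for Eef1a1, 0.53 and 0.49 for Eef1b2, 0.37 and 0.25 for Eef1g and 0.24 for Eef2 in both libraries, over 6330 cells with oil and 6127 with tamoxifen. Tpt1 was hardly related to that sum, at -0.11 and -0.012, and negatively related to Eef1g, at -0.21 and -0.22. Snhg6 was too sparse for its values (0.099 and 0.095) to be read. Outside the members and the ribosomal proteins, the 5 genes most like the summed elongation factors were Rack1 (mean r 0.43), Npm1 (0.41), Hsp90ab1 (0.38), Naca (0.27) and Ptma (0.26). For Snhg6 they were Npm1, Ptma, Ncl, Hsp90ab1 and Rbm3, with mean r between 0.079 and 0.10, which at this sparsity is no finding. All cells of a library share its capture and its base of 3000 UMIs, so these values are descriptions.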

How the data were processed

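Droplet-based 3′ single-cell libraries (V3 kit) were mapped by the authors to mm10 with Cell Ranger 3.0.2. What was deposited are raw UMI counts of each gene in each barcode. Barcodes needed 500 genes or more and no more than 10% mitochondrial UMIs to be kept here, and doublets were not removed. Counts were summed per library and divided by its total to give CPM with exact Poisson intervals. Intervals of the log2 ratio (tamoxifen over oil) are exact conditional binomial ones, and ratios relative to ribosomal proteins have a log-normal one. The 10527 genes with 100 UMIs or more in all were used for ratios. With 1 library per group no test was run. Thinning, the scanpy phase score and the ranges of cells are descriptions, and cells are not replicates.

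The members and gene lists were chosen with earlier results of these data known. Named are all members, Usp18, the 2 highest and 2 lowest ratios of each list, and the 5 genes most like the elongation factors and Snhg6; some results that this rule selects are not reported here. Comparisons by length, by noncoding type and of mast cell ranges within phases were added after the data were seen. Positions and lengths come from GENCODE M21 on GRCm38 (30934 of 31053 identifiers matched): transcript length is the median over basic transcripts and coding length the longest coding sequence. Sequences come from RefSeq on GRCm38.p6. The ratio step was tested on simulated Poisson counts for 10527 genes, of which 200 were changed 2-fold. All of these (100%) had an interval on the correct side of 0, and 95.6% of intervals held the true value. The intervals assume the same Poisson model, so this checks the calculation only and not the wider spread between real cells or animals. edgeR 4.0.16 (TMM) and DESeq2 1.42.0 (median ratio) gave alternative scalings only, in R 4.3.3; the rest used scanpy 1.11.5, scipy 1.17.1, matplotlib 3.10.9, numpy 2.4.6 and pandas 2.3.3 in Python 3.11.15.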

Additional observations from a re-analysis of the deposited data

Results flagged for a closer look

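The 936 barcodes of the library labelled oil and 839 of the library labelled tamoxifen that failed the cell filter entered no comparison above. In them the log2 ratio of tamoxifen over oil was positive for Eef1a1, 0.048 (0.019 to 0.077), for Eef2, 0.087 (0.028 to 0.15), and for the summed elongation factors, 0.034 (0.011 to 0.056), where the kept cells gave negative values. Ribosomal proteins were higher there too, at 0.34 (0.33 to 0.34). Eef1g was lower, at -0.18 (-0.27 to -0.091), and Snhg6 was at 0.24 (-0.024 to 0.51). These are values of barcodes with few genes or a high mitochondrial share, with no replicate library.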

How the results depend on the processing

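No paired analysis was possible because there is 1 library per group, and none could be left out. Eef1g stayed negative and Snhg6 positive under all 11 alternatives, and elongation factors stayed below ribosomal proteins under all 13. A change of scaling cannot alter that last ratio, so TMM, median-ratio and the total without mitochondrial and ribosomal protein genes each returned -0.27 and are no check on it. With mitochondrial and ribosomal protein genes left out of the total, signs turned for the median of the members (0.039), the elongation factor sum (0.023), Eef1a1 (0.050), Eef1b2 (0.0081), Eef2 (0.029) and Tpt1 (0.057), and Snhg6 was at 0.34. TMM scaling gave -0.00039 for the median, -0.017 for the elongation factors, 0.010 for Eef1a1 and 0.017 for Tpt1. Median-ratio scaling gave -0.0042, -0.021, 0.0065 and 0.013. The stricter cell filter (at least 1000 genes, at most 5% mitochondrial UMIs) kept only 673 and 771 cells and gave a median of -0.093, elongation factors at -0.11, Tpt1 at 0.057 and elongation factors over ribosomal proteins at -0.30. Elongation factors were at -0.050 with every cell weighted alike, -0.046 thinned and -0.045 as a mean within phases, and over ribosomal proteins at -0.29, -0.28 and -0.28, with -0.27 without the 6% of cells with the most UMIs. The thinned median was -0.023. Within phases Snhg6 was at 0.41, and over ribosomal proteins at 0.17. Comparators chosen after seeing the data gave elongation factors over ribosomal proteins of -0.17 (transcripts of at least 1000 bases) and -0.054 (coding sequences of at least 600 bases). The elongation factor ratio within G1 was 0.015 at 5000 UMIs. With a minimum of 10 UMIs, 14.98% of all genes were 1.2-fold higher. For values of single genes and of the ribosomal protein sum, 37 of 77 stayed within counting error, 31 moved and 9 turned sign. The causes were not tested. Snhg6, with 3979 and 4374 UMIs, had the widest intervals of the members.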

Other observations

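Over all deposited barcodes, members also varied with the mitochondrial share of the barcode. Relative to barcodes of 5 to 10% mitochondrial UMIs, those over 10% (845 with oil and 807 with tamoxifen) had less Eef1g, with log2 ratios of -0.65 (-0.72 to -0.59) and -0.58 (-0.64 to -0.51), and less of the summed elongation factors (-0.33 and -0.24), whereas Tpt1 differed little (-0.042 and -0.041). Barcodes under 2% (236 and 114, with medians of only 901.5 and 1158 UMIs) had less Eef2 (-0.39, -0.56 to -0.22, and -0.28, -0.48 to -0.084) and more Eef1b2 (0.26, 0.14 to 0.38, and 0.18, 0.027 to 0.33) and Tpt1 (0.18, 0.11 to 0.25, and 0.24, 0.15 to 0.32). Snhg6 in these barcodes could not be told from the main range at this depth, at -0.42 (-1.29 to 0.33) and -0.49 (-1.49 to 0.35).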
